A study of Homo sapiens with 8 samples.

Results

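Genes that cells switch on when oxygen is short were followed through the gain and the loss of MYCL, a member of the MYC family of transcription factors. The group holds 48 genes of the 78691 in the count table. It was put together by name from genes widely used as readouts of the hypoxia-inducible factors (HIF), with HIF1A, EPAS1 and their brakes included and the glycolytic enzymes left out, and the rule itself uses names only. All 48 were found in the table. The data are RNA-seq of 8 libraries of human cells, 2 for each of 4 conditions. C4-2B is an androgen receptor-positive prostate adenocarcinoma line, and it carried a lentivirus that expressed MYCL from the EF1A promoter, with EGFP made from the same transcript, or an empty vector (control). NCI-H660 is a neuroendocrine prostate cancer line, in which MYCL was depleted by RNA interference (shMYCL) or a control shRNA with no target was used (shCtrl). For that line the series' design text and the methods name an adenoviral vector, with 3 miR30-based shRNAs in 1 construct in the methods. The methods also describe a lentiviral shRNA for stable knockdown, and the labels speak of collection after stable knockdown, so the construct used and the duration of the knockdown are uncertain. Both lines grew in RPMI-1640 with 10% serum, with added growth supplements for NCI-H660, and no oxygen deprivation is mentioned in the labels.

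When oxygen is plentiful, prolyl hydroxylases of the EGLN family modify the HIF alpha subunits HIF1A and EPAS1 (HIF-2 alpha), and the VHL ubiquitin ligase then sends them to the proteasome. When oxygen falls the alpha subunits persist, pair with ARNT and bind the short hypoxia response element in DNA, raising genes for glucose uptake, acid export, new vessels, collagen modification and mitochondrial clearance. Some of the targets, EGLN3 and EGLN1 among them, feed back on the pathway. The alpha subunits are controlled mainly at the protein level, and these libraries measured RNA only.

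The targeted gene followed the labels. MYCL had 371 and 320 counts in C4-2B control and 65524 and 70253 with the MYCL vector, transcripts of the transgene included, and 1863 and 1602 in shCtrl against 165 and 198 in shMYCL. Its log2 fold change was 8.26 (SE 0.12) in C4-2B and -3.06 (SE 0.15) in NCI-H660. Total counts ran from 15177071 to 32344170 per library. Each line matched its name, since 8 of 8 luminal prostate markers reached 1 TPM (transcript abundance scaled for gene length and depth) in every C4-2B library and 8 of 8 neuroendocrine markers did in every NCI-H660 library. Both marker sums were lower where members moved: the luminal sum was 2350 and 2358 TPM in control and 1690 and 1543 TPM in MYCL, and the neuroendocrine sum was 1381 and 1220 TPM in shCtrl and 991 and 1108 TPM in shMYCL. Among markers of other cells, CD68, a lysosomal protein listed as a white blood cell marker, took the summed white blood cell level from 8.30 and 10.8 TPM to 23.9 and 25.7 TPM in C4-2B, while at least 2 of the 4 markers on that list had 0 counts in every library; fibroblast and endothelial sums stayed below 5 TPM. The part of these levels in the results was not tested. In bulk RNA a smaller share of cells expressing a gene and less RNA per cell cannot be told apart.

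The members moved in opposite directions with the gain and the loss of MYCL. In C4-2B, 45 members had enough counts to be tested, and 32 of them rose with MYCL, which is 71.1% of those tested against 11.8% of all 16866 genes tested. No member fell, where 8.12% of all genes did; no tested member had a negative change even at an unadjusted p under 0.05, and DESeq2 called none lower. The median log2 fold change of the tested members was 0.87, beside 0.00 over all genes. In NCI-H660, 44 members were tested and 31 fell with shMYCL, 70.5% of those tested against 8.99% of all 16980 genes tested, and no member rose, where 7.18% of all genes did. At an unadjusted p under 0.05, 3 members had a positive change there, and DESeq2 called none higher. The median was -1.04, beside 0.00 over all genes. A gene was called changed at an edgeR adjusted p under 0.05 over all genes and a log2 fold change of 0.5 or more in size. ADM, ANGPTL4 and PPP1R3C had too few counts to be tested in C4-2B, and CA12, IGFBP3, NRN1 and SLC2A3 in NCI-H660, so that 41 members were tested in both lines. Of those, 24 were higher with MYCL in C4-2B and lower with shMYCL in NCI-H660, or 58.5%, where 1.8% of the 14212 genes tested in both lines met both criteria. The 24 are 75% of the members that rose in C4-2B and 77.4% of the members that fell in NCI-H660. Over all genes tested in both lines, the shared genes are 15.4% of those higher in C4-2B and 22.5% of those lower in NCI-H660. On the C4-2B side the calls depended on the scaling. With TPM on a log2(TPM + 1) scale, limma called 25 members higher. The median over all genes of that fit was -0.14, so that 33.5% of all called genes were higher there against 59.2% on the count scale. After centring each library on its median, limma called 30 members higher. The median over all genes was then 0.01, and 60.7% of all called genes were higher.

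**Figure D1:**
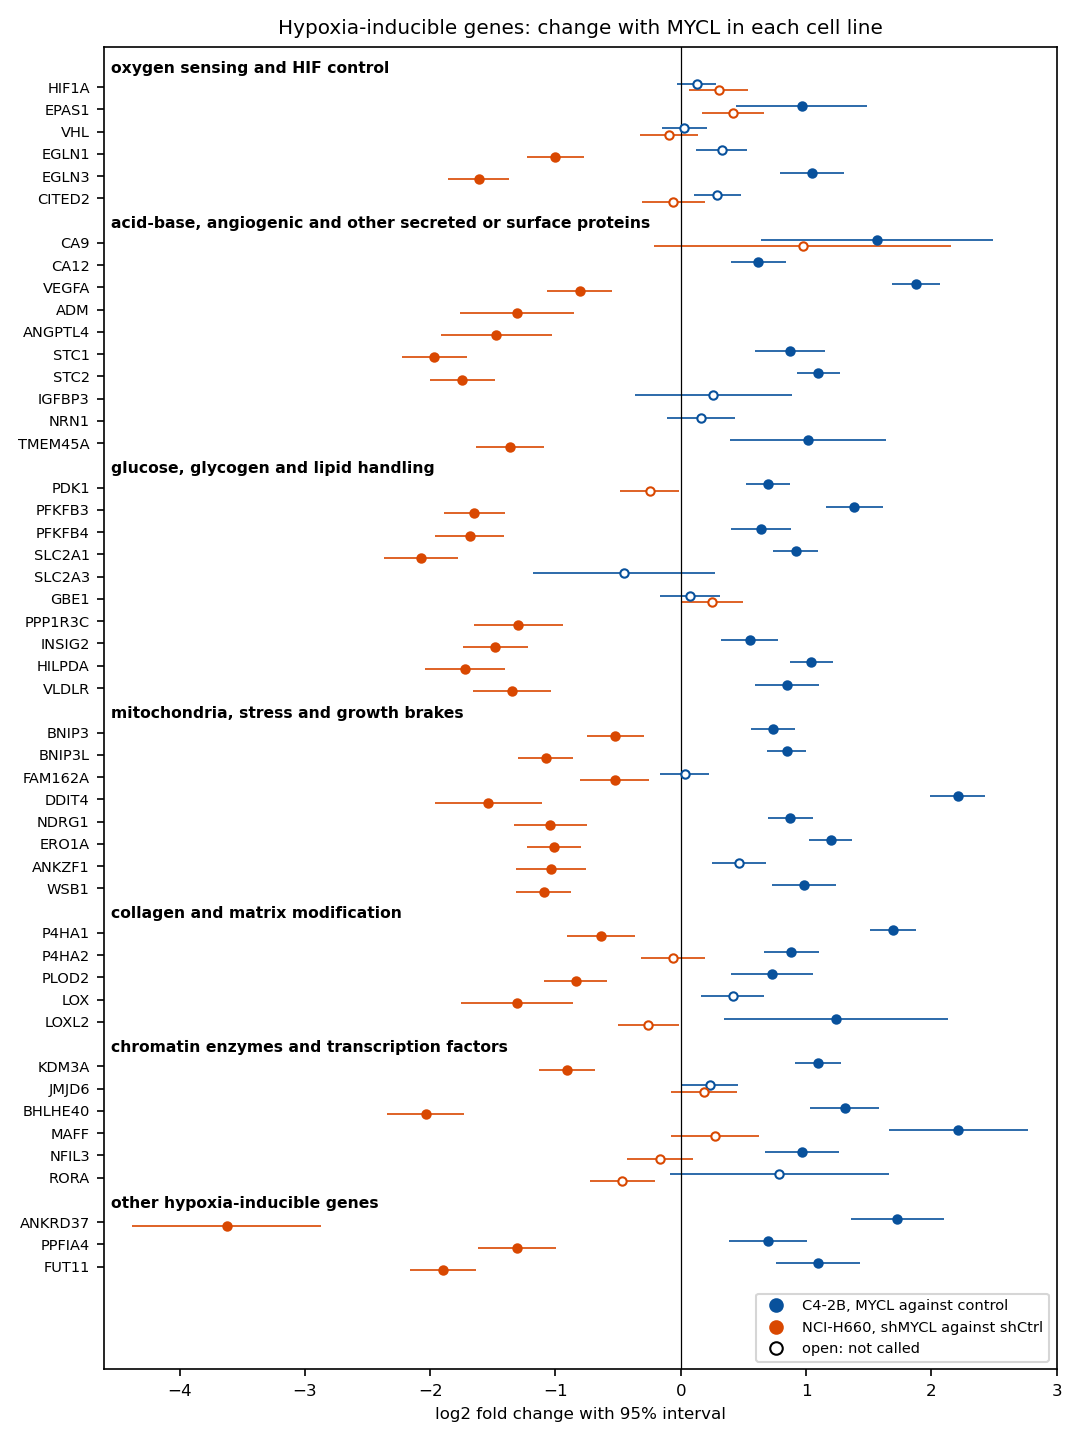
Log2 fold change with its 95% interval (x axis) for the 48 genes ordered by role (y axis), in blue for C4-2B MYCL against control and in orange for NCI-H660 shMYCL against shCtrl; filled points were called and open points were not. Called blue points, 32 in number, lie to the right of 0, and the 31 called orange points lie to the left.

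Promoters of the members were searched for the core of the hypoxia response element, to which HIF binds, and for the E-box, to which MYC proteins bind. RefSeq promoter windows (GRCh38.p14, 250 bases before to 50 after a transcript start of the gene) were at hand for 37 of the 48 members. The start used was not always the outermost start of the annotated gene. The cores ACGTG and GCGTG were sought on both strands, where they read CACGT and CACGC on the opposite strand. CACGTG, the E-box of MYC and its partner MAX, holds ACGTG once on each strand and was counted as such in both searches. A core of either kind was present in 31 of the 37 windows (83.8%) and in 48.4% of all 27305 promoter windows. ACGTG was in 19 (51.4%, against 21.6% of all), GCGTG in 20 (54.1%, against 36.3%) and CACGTG in 8 (21.6%, against 7.43%). Of the 18 members called in both lines that had a window, 16 held a core and 5 held CACGTG, and of the other 19 members with a window 15 held a core and 3 held CACGTG. A match is a description of the letters and not a measured binding site. The members were picked as readouts of HIF, so their higher share of cores is not independent of that choice. Of the 10 members called in both lines whose windows hold 3 or more cores, 4 are shown as examples, chosen after their values were seen, at chr4:185396591-185396890 (plus strand), chr3:4979187-4979486 (plus strand), chr10:131981874-131982173 (minus strand) and chr10:72273674-72273973 (plus strand). ERO1A, PLOD2, PPFIA4, STC2, VLDLR and WSB1 met the same conditions. The window of SLC2A1 at chr1:42958819-42959118 (minus strand) is added for the gene with the largest fall in NCI-H660 among well-counted members. It holds a single core, after the gene's start. Whether the cores have a part in the changes was not tested. Sequences run 5′ to 3′ on the gene's strand and the capitals mark the cores on either strand, 6 letters in a row being the E-box CACGTG.
ANKRD37: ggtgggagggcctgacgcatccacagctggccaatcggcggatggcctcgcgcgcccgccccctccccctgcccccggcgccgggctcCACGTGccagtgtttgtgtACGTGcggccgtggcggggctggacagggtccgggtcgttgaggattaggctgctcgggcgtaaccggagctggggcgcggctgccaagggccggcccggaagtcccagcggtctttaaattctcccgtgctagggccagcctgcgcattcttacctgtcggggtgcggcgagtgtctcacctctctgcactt
BHLHE40: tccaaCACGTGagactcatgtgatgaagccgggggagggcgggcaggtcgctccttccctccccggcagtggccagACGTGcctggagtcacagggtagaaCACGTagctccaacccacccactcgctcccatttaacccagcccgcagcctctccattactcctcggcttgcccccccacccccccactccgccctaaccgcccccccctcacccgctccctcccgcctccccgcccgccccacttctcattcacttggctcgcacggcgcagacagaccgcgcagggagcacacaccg
BNIP3: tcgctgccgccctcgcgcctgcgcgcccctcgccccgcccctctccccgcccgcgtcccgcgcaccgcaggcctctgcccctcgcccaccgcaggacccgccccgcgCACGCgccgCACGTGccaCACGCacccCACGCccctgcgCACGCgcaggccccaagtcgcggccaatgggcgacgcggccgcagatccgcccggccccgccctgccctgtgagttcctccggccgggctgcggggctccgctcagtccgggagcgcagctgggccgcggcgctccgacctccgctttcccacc
DDIT4: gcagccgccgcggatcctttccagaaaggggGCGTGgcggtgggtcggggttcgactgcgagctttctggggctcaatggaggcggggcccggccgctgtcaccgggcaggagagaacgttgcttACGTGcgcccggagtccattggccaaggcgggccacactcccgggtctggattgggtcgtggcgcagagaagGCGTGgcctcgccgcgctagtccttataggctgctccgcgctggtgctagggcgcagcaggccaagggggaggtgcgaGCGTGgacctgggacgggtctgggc
SLC2A1: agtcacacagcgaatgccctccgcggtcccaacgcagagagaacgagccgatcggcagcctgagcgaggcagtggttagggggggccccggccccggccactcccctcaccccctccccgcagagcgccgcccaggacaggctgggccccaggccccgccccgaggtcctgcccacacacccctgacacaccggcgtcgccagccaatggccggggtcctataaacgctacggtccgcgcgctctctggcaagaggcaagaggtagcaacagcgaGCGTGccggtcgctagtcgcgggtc

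In ANKRD37 the E-box began 162 bases before the start and the other core 143 bases before it. The BNIP3 cores lay between 143 and 104 bases before the start. The DDIT4 cores were spread from 219 bases before to 25 bases after it. No core was present in the windows of EGLN3, PDK1, P4HA2, TMEM45A, NRN1 and RORA, of which EGLN3 and TMEM45A were called in both lines. The windows of EGLN3, P4HA2, NRN1 and RORA lay inside the annotated gene, so they describe an internal start. The same was true of windows that hold a core, those of ANKRD37, ANGPTL4, EPAS1, ERO1A, IGFBP3, KDM3A, MAFF, PFKFB4, PLOD2 and VLDLR. Distances are given from the start used. For RORA, on the minus strand, the window reached up to base 60627780 and the gene up to base 61229302, where it starts.

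Of the 6 genes of oxygen sensing and HIF control, EPAS1 and EGLN3 rose in C4-2B, EGLN1 and EGLN3 fell in NCI-H660, and HIF1A, VHL and CITED2 were called in neither line. Levels are given as CPM, counts scaled to the size of each library within a line. HIF1A, the alpha subunit present in most cells, was at 198 and 204 CPM in C4-2B control and at 224 and 215 CPM with MYCL. It was at 442 and 373 CPM in shCtrl and at 486 and 519 CPM in shMYCL. Neither change was called: the log2 fold change was 0.13 (95% interval -0.03 to 0.28) in C4-2B and 0.30 (0.07 to 0.54, edgeR adjusted p = 0.0577) in NCI-H660, and in TPM the C4-2B value was -0.02. EPAS1, which encodes HIF-2 alpha, was lowly expressed in C4-2B at 2.89 and 3.65 CPM in control and rose to 6.34 and 6.41 CPM with MYCL (log2 fold change 0.97, SE 0.23, edgeR adjusted p = 0.0112). That call was lost without C4-2B control replicate 1 (0.79) and in every TPM fit. In NCI-H660 EPAS1 was at 32.2 and 34.2 CPM in shCtrl and at 43.8 and 45.2 CPM in shMYCL, a log2 fold change of 0.42 that stayed under the minimum of 0.5 (edgeR adjusted p = 0.0157). VHL, the substrate arm of the ligase, was at 74.8 and 81.9 CPM in control and 81.9 and 77.8 CPM with MYCL, and at 143 and 159.5 CPM in shCtrl and 132 and 151 CPM in shMYCL. Its groups overlapped in both lines, with log2 fold changes of 0.03 (-0.15 to 0.21) and -0.09 (-0.33 to 0.14); a lncRNA on the opposite strand covers 23.5% of its exon sequence. CITED2, a competitor of HIF for its coactivators, was not called in either line (0.29 and -0.06).

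Of the prolyl hydroxylases, EGLN3 was called in both lines, EGLN1 in NCI-H660 and EGLN2, which is not a member, in neither (0.23 and -0.21). EGLN3, the most strongly hypoxia-inducible of the hydroxylases, was at 18.5 and 20.2 CPM in C4-2B control and 43.7 and 36.1 CPM with MYCL. It was at 292 and 347 CPM in shCtrl and 109.6 and 99.1 CPM in shMYCL. The groups did not overlap in either line, and the gene was 2.07-fold higher with MYCL and 3.06-fold lower with shMYCL (log2 fold changes 1.05, SE 0.11, and -1.61, SE 0.12). EGLN1, the main oxygen sensor in most cells, was at 84 and 81 CPM in control and 95.3 and 112 CPM with MYCL, a change of 0.33 on the log2 scale that was below the minimum. It was at 151 and 155 CPM in shCtrl and 71.9 and 80.9 CPM in shMYCL, a 2-fold fall (95% interval on the log2 scale -1.23 to -0.77, edgeR adjusted p = 1.13e-05). A share of 55.8% of the EGLN1 exon sequence lies in another annotated gene on the same strand, so its counts may be split in a way the sources used here do not describe.

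**Figure D2:**
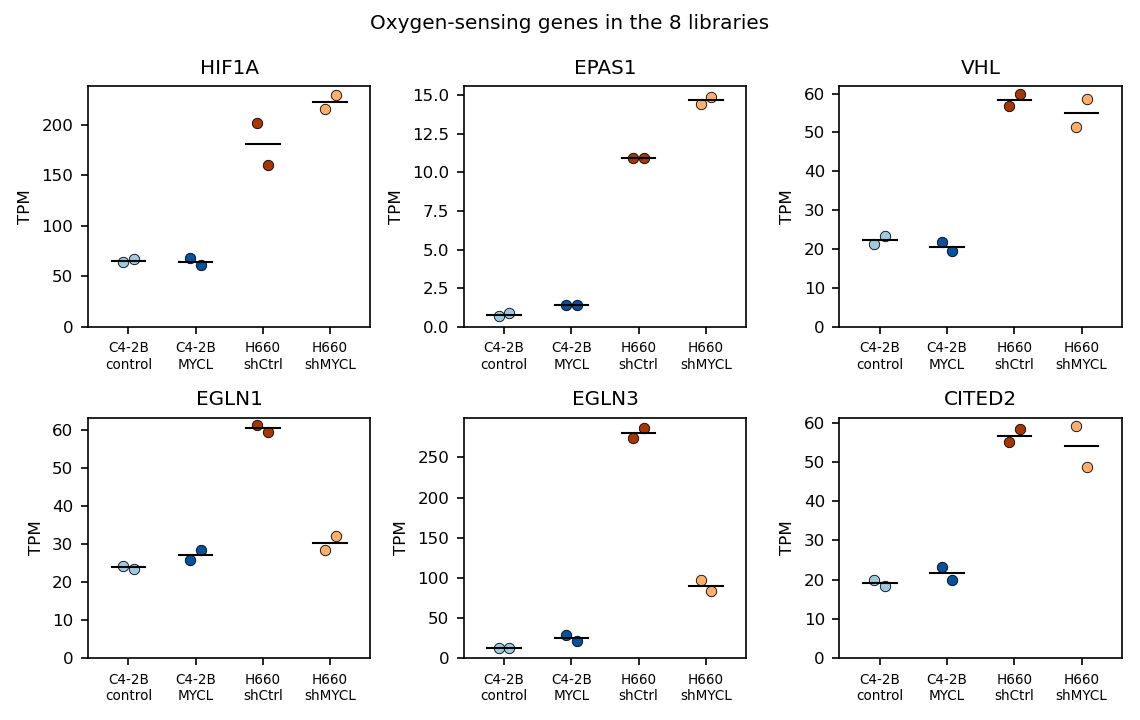
TPM (y axis) of 6 oxygen-sensing genes in each library, with points for libraries, a line for the mean of 2 and the 4 groups on the x axis. EGLN3 goes from 13.1 and 13.1 TPM in C4-2B control to 29.1 and 21.9 TPM with MYCL and from 274 and 286 TPM in shCtrl to 97 and 83.3 TPM in shMYCL, whereas VHL points of the groups within a line overlap.

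The members with the largest changes came from different roles. In C4-2B the 5 called members with the largest change among those with a mean log2 CPM of at least 3 were DDIT4, VEGFA, ANKRD37, P4HA1 and PFKFB3. In NCI-H660 they were SLC2A1, BHLHE40, STC1, FUT11 and STC2. MAFF (2.21) and CA9 (1.57) in C4-2B and ANKRD37 (-3.62) in NCI-H660 lay below that level. Each of these changed by more than the last gene listed for its line. All 10 genes of the 2 lists were called in both lines. So were 75% of all members that rose in C4-2B and 77.4% of all that fell in NCI-H660. Over all genes tested in both lines these shares were 15.4% and 22.5%.

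**Figure D3:**
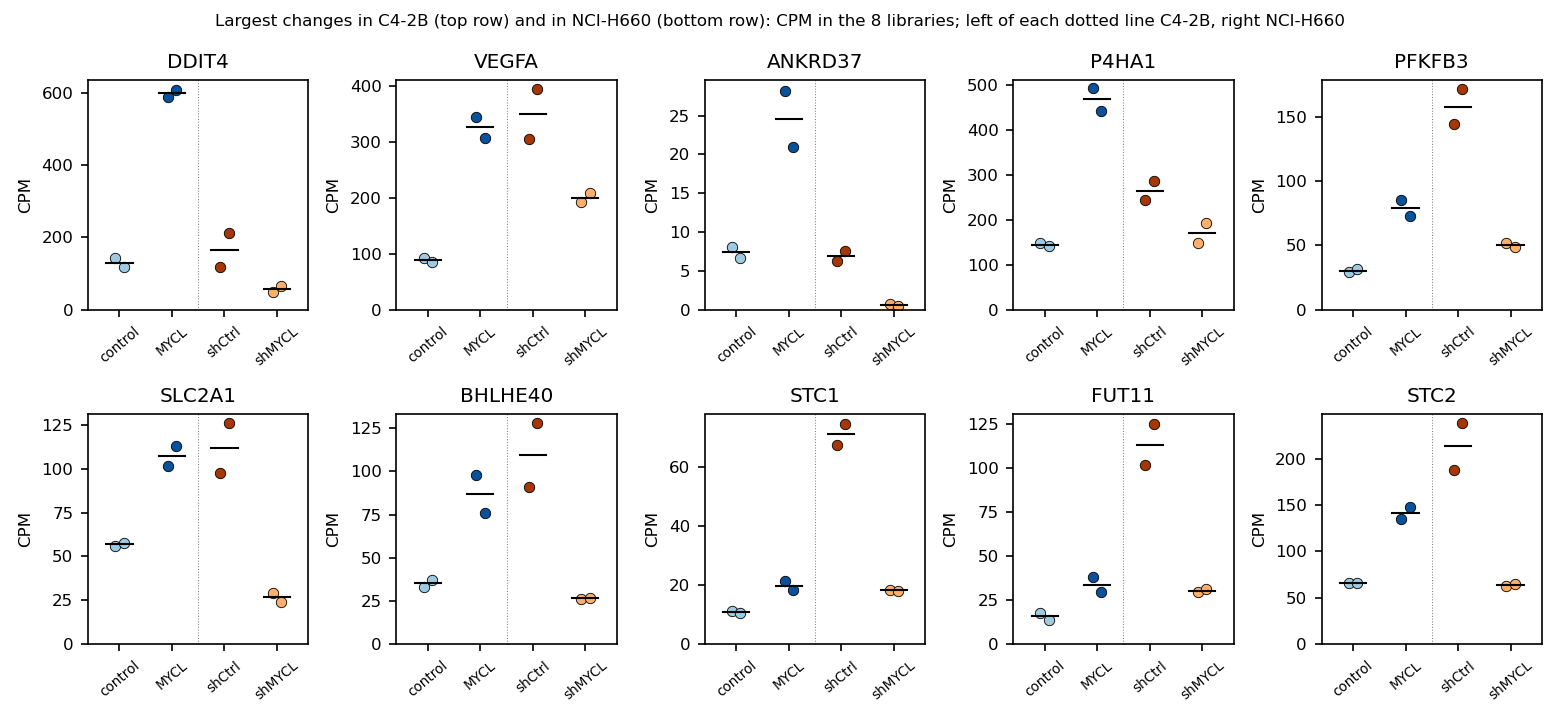
CPM (y axis) in the 8 libraries for the 5 genes with the largest change in C4-2B (top row) and in NCI-H660 (bottom row); points are libraries, lines are means of 2, and CPM was scaled within each line. DDIT4 reaches 589.7 and 608 CPM with MYCL against 142 and 117 CPM in control, and SLC2A1 falls from 97.7 and 126 CPM to 29.3 and 23.9 CPM with shMYCL.

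Among secreted and surface proteins, 6 of the 8 members tested in C4-2B rose and 6 of the 7 tested in NCI-H660 fell. VEGFA, the main angiogenic growth factor, was at 92 and 85.5 CPM in C4-2B control and 344 and 308 CPM with MYCL. It was at 306 and 396 CPM in shCtrl and 192 and 208 CPM in shMYCL. The rise was 3.67-fold (log2 fold change 1.88, SE 0.08, edgeR adjusted p = 3.91e-06) and the fall 1.75-fold (-0.81, SE 0.12). STC1 and STC2 encode stanniocalcins, secreted glycoproteins linked to calcium and phosphate handling. STC1 was at 11.2 and 10.5 CPM in control and 21.5 and 18.2 CPM with MYCL, and at 67.6 and 74.7 CPM in shCtrl and 18.4 and 17.9 CPM in shMYCL. STC2 was at 66.2 and 65.6 CPM in control and 135 and 148 CPM with MYCL, and at 188 and 239 CPM in shCtrl and 62.3 and 65.3 CPM in shMYCL. Both rose by less in C4-2B (log2 fold changes 0.87 and 1.10) than they fell in NCI-H660 (-1.97 and -1.74). TMEM45A, a transmembrane protein, was at 2.09 and 2.02 CPM in control and 3.69 and 4.63 CPM with MYCL, and at 42.4 and 47.2 CPM in shCtrl and 16.8 and 18.1 CPM in shMYCL; its C4-2B call (1.01) was lost without MYCL replicate 2.

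The carbonic anhydrases, which help cells to export acid, gave little in NCI-H660. CA9, often used as a tissue marker of hypoxia, had 19 and 17 counts in C4-2B control and 34 and 35 counts with MYCL, in libraries of unequal depth, which is 0.584 and 0.714 CPM against 1.84 and 2.00 CPM (log2 fold change 1.57, SE 0.41, edgeR adjusted p = 0.0169). In NCI-H660 it had 8 and 10 counts in shCtrl and 13 and 18 counts in shMYCL, and the change of 0.97 was not called (interval -0.21 to 2.16). CA9 was thus near the lower limit of counting in both lines, ARHGEF39 on the opposite strand covers 35.7% of its exon sequence, and its C4-2B call was lost without control replicate 1 or MYCL replicate 2. CA12 rose in C4-2B by 0.62, a call lost in 3 of the TPM fits, and had 10 and 0 counts in shCtrl. ADM, which encodes the vasodilator adrenomedullin, and ANGPTL4, an inhibitor of lipoprotein lipase, were called only in NCI-H660, with log2 fold changes of -1.31 and -1.47. In the fits of each line, they had enough counts in NCI-H660 alone. In the fit of all 4 groups ANGPTL4 was called higher in C4-2B too, on 3 and 8 counts with MYCL against 2 and 1 in control. IGFBP3, a carrier of insulin-like growth factors, and NRN1, a neurite growth protein, were tested only in C4-2B and were not called there (0.26 and 0.16).

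Of the genes of glucose, glycogen and lipid handling, 7 of 9 tested rose in C4-2B and 7 of 9 tested fell in NCI-H660. SLC2A1, the GLUT1 glucose transporter, was at 55.9 and 57.7 CPM in control and 102 and 113 CPM with MYCL. In NCI-H660 it was at 97.7 and 126 CPM in shCtrl and 29.3 and 23.9 CPM in shMYCL, a 4.2-fold fall (log2 fold change -2.07, SE 0.14, edgeR adjusted p = 1.02e-07) beside a 1.89-fold rise in C4-2B. PFKFB3 and PFKFB4 make and remove fructose 2,6-bisphosphate, a strong activator of glycolysis. PFKFB3 was at 29 and 31.6 CPM in control and 85.3 and 72.9 CPM with MYCL, and at 145 and 172 CPM in shCtrl and 52 and 49.1 CPM in shMYCL. PFKFB4 was at 49.4 and 39.9 CPM in control and 71.2 and 68.6 CPM with MYCL, and at 112 and 145 CPM in shCtrl and 42.1 and 37.8 CPM in shMYCL. Both fell by a similar amount in NCI-H660 (-1.65 and -1.69), while in C4-2B PFKFB3 rose by 1.39 and PFKFB4 by 0.64. The PFKFB4 call in C4-2B was lost without control replicate 2 and in some TPM fits. PDK1, a pyruvate dehydrogenase kinase, rose by 0.70 in C4-2B and was not called in NCI-H660 (-0.25, interval -0.48 to -0.01).

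Lipid genes of the group moved with the glucose genes. HILPDA, a lipid droplet protein that restrains lipolysis, was at 36.3 and 36.8 CPM in control and 75.1 and 75.2 CPM with MYCL, and at 39.1 and 52.4 CPM in shCtrl and 13.8 and 14 CPM in shMYCL. VLDLR, a receptor for triglyceride-rich lipoproteins, was at 11.9 and 10.7 CPM in control and 20.7 and 20.1 CPM with MYCL, and at 52 and 70.1 CPM in shCtrl and 26.1 and 21.9 CPM in shMYCL. INSIG2, a brake on sterol synthesis, was at 36.1 and 30.2 CPM in control and 47.6 and 49.8 CPM with MYCL, and at 87.6 and 108 CPM in shCtrl and 35.9 and 34.5 CPM in shMYCL. The log2 fold changes were 1.04, 0.85 and 0.55 in C4-2B and -1.72, -1.35 and -1.48 in NCI-H660. The INSIG2 call in C4-2B was lost without control replicate 2 and in most TPM fits. The glycogen genes gave no shared pattern: PPP1R3C, a glycogen-targeting subunit of a phosphatase, fell in NCI-H660 (-1.30), and GBE1, the branching enzyme, was not called in either line (0.07 and 0.25). SLC2A3, the GLUT3 transporter, was not called in C4-2B (-0.45, interval -1.18 to 0.27), and reads may be shared with its near-identical copy SLC2A14.

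All 8 genes of mitochondria, stress and growth brakes fell in NCI-H660, and 6 of them rose in C4-2B. DDIT4 (REDD1), a brake on mTORC1, was at 142 and 117 CPM in control and 589.7 and 608 CPM with MYCL. In NCI-H660 it was at 118 and 212 CPM in shCtrl and 48.7 and 65.1 CPM in shMYCL. The rise was 4.62-fold (log2 fold change 2.21, SE 0.10, edgeR adjusted p = 3.91e-06) and the fall 2.9-fold (-1.53, SE 0.20, edgeR adjusted p = 6.66e-05). NDRG1, a growth-restraining protein of differentiated epithelium, was the most abundant member in NCI-H660 on the TPM scale, at 2284 and 2895 TPM in shCtrl. It was at 772 and 682 CPM in control and 1353 and 1311 CPM with MYCL, and at 3795 and 5116 CPM in shCtrl and 1968 and 2358 CPM in shMYCL. ERO1A, an oxidase of the endoplasmic reticulum, was at 120 and 121 CPM in control and 289.5 and 262 CPM with MYCL, and at 265 and 259.5 CPM in shCtrl and 129 and 131 CPM in shMYCL. WSB1, a ubiquitin ligase subunit, was at 88.5 and 80.7 CPM in control and 188 and 148 CPM with MYCL, and at 222 and 228 CPM in shCtrl and 108 and 103 CPM in shMYCL.

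BNIP3 and BNIP3L (NIX) are receptors that mark mitochondria for removal by autophagy. BNIP3 was at 396 and 352 CPM in control and 626 and 622 CPM with MYCL, and at 388 and 372 CPM in shCtrl and 248 and 282 CPM in shMYCL. BNIP3L was at 164 and 164 CPM in control and 299 and 289 CPM with MYCL, and at 199 and 208 CPM in shCtrl and 93.8 and 99 CPM in shMYCL. Their rises were alike (0.74 and 0.84), whereas BNIP3 fell by 0.52 and BNIP3L by 1.08 on the log2 scale in NCI-H660. The BNIP3 fall was near the minimum of 0.5, was lost without shCtrl replicate 1 or shMYCL replicate 1 and in the TPM fits, and many pseudogene copies of BNIP3 are annotated, which may take some of its reads. FAM162A, a mitochondrial protein, was not called in C4-2B (0.03) and fell by 0.53 in NCI-H660. That call was lost without shCtrl replicate 2 or shMYCL replicate 1 and in every TPM fit. ANKZF1, which acts in ribosome quality control, fell in NCI-H660 (-1.03) and was just under the minimum in C4-2B (0.47).

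Of the 5 enzymes of collagen and matrix modification, 4 rose in C4-2B and 3 fell in NCI-H660. P4HA1, a catalytic subunit of collagen prolyl 4-hydroxylase, was at 148 and 142 CPM in control and 494 and 443 CPM with MYCL. In NCI-H660 it was at 243 and 287 CPM in shCtrl and 148 and 192 CPM in shMYCL. It rose 3.24-fold (log2 fold change 1.69, SE 0.08) and fell 1.56-fold (-0.64, SE 0.13), the fall being lost as a call without shMYCL replicate 1. PLOD2, a lysyl hydroxylase, was at 31.5 and 22.4 CPM in control and 46.5 and 43.4 CPM with MYCL, and at 784 and 884 CPM in shCtrl and 419 and 515 CPM in shMYCL. Its changes were 0.73 and -0.84, the rise being lost as a call in 3 of the TPM fits. P4HA2, the sister of P4HA1, rose by 0.88 and was not called in NCI-H660 (-0.07, interval -0.32 to 0.19). The lysyl oxidases, which cross-link collagen, divided: LOX fell in NCI-H660 (-1.31; -0.67 at the smallest in the TPM fits, all 4 of which lost the call) and was not called in C4-2B (0.41), and LOXL2 rose in C4-2B by 1.24 from 46 and 18 counts and was not called in NCI-H660 (-0.26). The LOXL2 call in C4-2B was lost without control replicate 2 or MYCL replicate 1 and with DESeq2.

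Of the 6 transcription factors and chromatin enzymes, 4 rose in C4-2B and 2 fell in NCI-H660. BHLHE40 (DEC1), a repressor of the clock and of metabolism genes, was at 33.2 and 37.3 CPM in control and 98 and 76.2 CPM with MYCL. It was at 90.7 and 128 CPM in shCtrl and 26.3 and 27 CPM in shMYCL, a 4.1-fold fall (log2 fold change -2.04, SE 0.15, edgeR adjusted p = 1.82e-07) beside a 2.48-fold rise in C4-2B. KDM3A, a histone H3 lysine demethylase, was at 43.5 and 45.3 CPM in control and 99.7 and 90.0 CPM with MYCL, and at 296 and 301 CPM in shCtrl and 166 and 152 CPM in shMYCL, with changes of 1.09 and -0.91. MAFF, a small MAF protein of the stress response, was at 2.24 and 1.89 CPM in control and 11.1 and 8.18 CPM with MYCL (4.64-fold, log2 fold change 2.21, SE 0.24). In NCI-H660 MAFF was at 14.6 and 21.6 CPM in shCtrl and 23 and 20.9 CPM in shMYCL, and these groups overlapped. NFIL3, a basic leucine zipper factor, rose in C4-2B (0.97) and was not called in NCI-H660 (-0.17). JMJD6, an oxygenase of the Jumonji family (0.24 and 0.19), and RORA, a nuclear receptor (0.79 and -0.47), were not called in either line. With a library left out, RORA ranged from 0.35 to 1.46 in C4-2B and from -0.60 to -0.33 in NCI-H660.

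The remaining 3 members rose and fell together. ANKRD37, an ankyrin repeat protein, was at 8.08 and 6.68 CPM in control and 28.2 and 21 CPM with MYCL. In NCI-H660 it had 105 and 140 counts in shCtrl and 10 and 7 counts in shMYCL, or 6.2 and 7.58 CPM against 0.658 and 0.447 CPM. It was 3.32-fold higher with MYCL (log2 fold change 1.73, SE 0.16) and 12.3-fold lower with shMYCL (-3.62, SE 0.36), and UFSP2 on the opposite strand covers 40.3% of its exon sequence. FUT11, a fucosyltransferase, was at 17.6 and 13.8 CPM in control and 37.8 and 29.7 CPM with MYCL, and at 102 and 125 CPM in shCtrl and 29.8 and 31 CPM in shMYCL. PPFIA4, a liprin scaffold protein, was at 7.71 and 8.4 CPM in control and 13.4 and 12.7 CPM with MYCL, and at 39.4 and 52.3 CPM in shCtrl and 19.4 and 17.7 CPM in shMYCL. The changes of FUT11 were 1.09 and -1.90, and those of PPFIA4 were 0.70, lost as a call in 3 of the TPM fits, and -1.31.

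Libraries of the same group were not alike. Of the 31 members that fell with shMYCL, 29 had a higher CPM in shCtrl replicate 2 than in replicate 1, with a median ratio of 1.24. Of all 44 members tested in NCI-H660, 39 were higher in shCtrl replicate 2 and 28 in shMYCL replicate 2. In C4-2B, of 45 tested members, 29 were higher in control replicate 1 and 30 in MYCL replicate 1. The matching shares over all genes were not counted. MYCL itself was at 110 CPM in shCtrl replicate 1 and 86.7 CPM in shCtrl replicate 2. The median log2 fold change of the members was -0.94 without shCtrl replicate 2 and -1.10 without shCtrl replicate 1. Not every member fell without shCtrl replicate 2: MAFF was then higher in shMYCL (0.58, against 0.27 with all libraries). The labels give the libraries no batch.

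The sizes of the changes did not run parallel in the lines. Putting both as high against low MYCL, the 24 members called in both lines changed more in NCI-H660 in 18 cases and more in C4-2B in 6. Over the 41 members tested in both, the correlation of the effects was weak (Pearson's r = 0.25, Spearman's rho = 0.28, across genes, which share the libraries), and over all 14212 genes tested in both it was 0.0891. A direct test of the difference, fitted over all 4 groups as an interaction, called 21 of the 48 members, 43.8%, where 17.9% of all 19605 genes were called. The effect of high MYCL was larger in C4-2B for 8 members and larger in NCI-H660 for 13, and the median difference was -0.14. The 5 largest were CA9 (2.54, SE 0.67), MAFF (2.48, SE 0.30), ANKRD37 (-1.90, SE 0.39), EPAS1 (1.39, SE 0.20) and SLC2A1 (-1.16, SE 0.18). CA9 had few counts in both lines, and its difference lost the call in some fits with a library left out. VEGFA (1.07) and P4HA1 (1.05) responded more in C4-2B. STC1 (-1.10) and PFKFB4 (-1.05) responded more in NCI-H660. The difference for HIF1A (0.43, edgeR adjusted p = 0.0401) was under the minimum, and it was not called for VHL (-0.07, interval -0.36 to 0.23). The amount by which MYCL was changed differed too, 8.26 in C4-2B and -3.06 on the log2 scale in NCI-H660, and vector, line and dose cannot be told apart. Without C4-2B MYCL replicate 2 the count of called differences was 14.

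**Figure D4:**
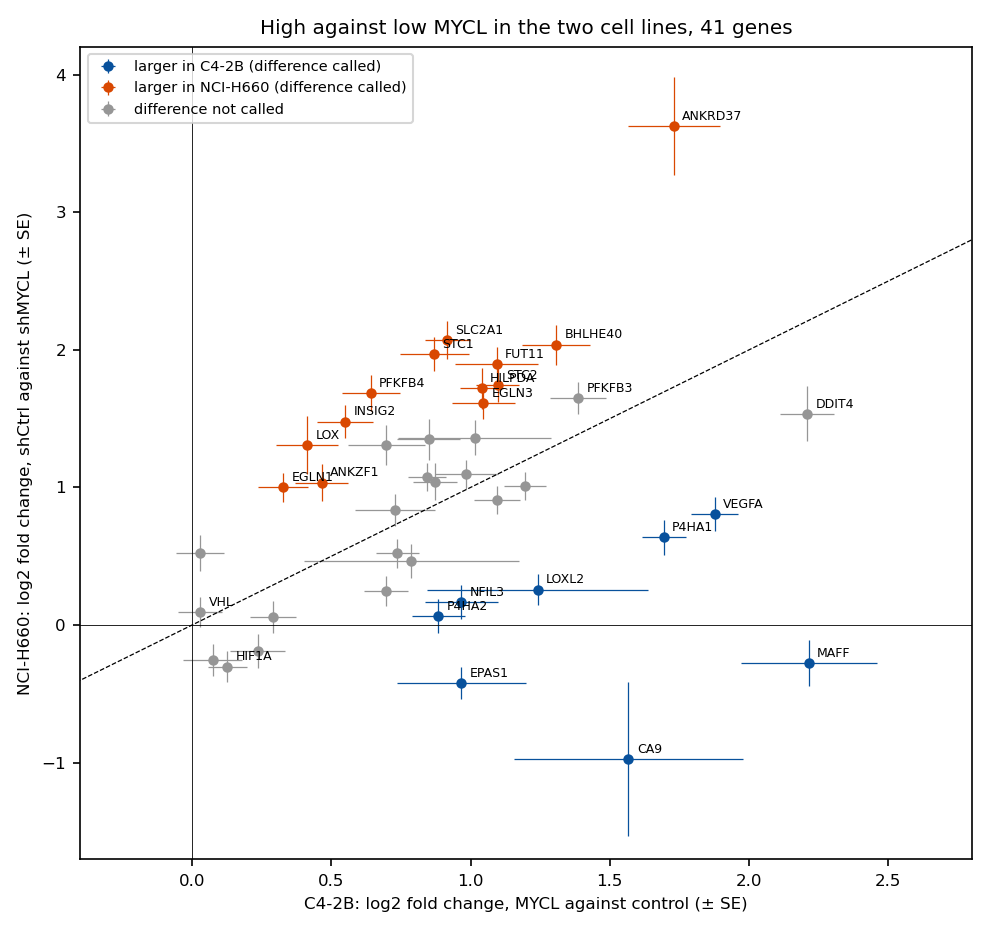
Log2 fold change of C4-2B MYCL against control (x axis) and of NCI-H660 shCtrl against shMYCL (y axis), each ± SE, for the 41 genes tested in both lines; the dashed line marks equal effects and colours show whether the difference was called. ANKRD37 lies far above the line at 1.73 and 3.62, and MAFF and CA9 lie far below it.

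Before any change in MYCL the lines already differed in these genes. Of the 48 members, 33 were higher in NCI-H660 shCtrl than in C4-2B control and 7 were lower, or 68.8% and 14.6%, where 36.5% and 33.3% of all genes were. The median log2 difference was 1.30, beside 0.03 over all genes. On the log2(TPM + 1) scale 37 were higher and 5 lower, while the median of all genes moved to 0.52, so that 71.1% of all called genes were higher against 52.2% on the count scale; after centring each library on its median, 33 were higher and 9 lower. The 4 largest differences were of genes that 1 line hardly expressed. PPP1R3C had 0 counts in each C4-2B control library and 389 and 599 in shCtrl, at least 227-fold higher when 3 counts per library are put in place of 0. ANGPTL4 had 2 and 1 counts in C4-2B control and 228 and 385 in shCtrl. ADM had 4 and 1 counts in C4-2B control and 257 and 470 in shCtrl. SLC2A3 went the other way, with 167 and 79 counts in C4-2B control and 1 and 0 in shCtrl. CA12, IGFBP3 and NRN1 were likewise near 0 in NCI-H660, with 10 and 0, 0 and 3, and 12 and 4 counts in shCtrl against 898 and 698, 78 and 59, and 461 and 304 in C4-2B control. All 6 oxygen-sensing members were higher in NCI-H660, EGLN3 most (log2 difference 3.89, SE 0.12) and EPAS1 next (3.20, SE 0.14). Among the effectors LOXL2 (5.44), PLOD2 (4.78), RORA (5.83) and TMEM45A (4.28) were far higher in NCI-H660, and PDK1 (-0.99), FAM162A (-1.27) and LOX (-0.57) were lower. The PDK1 and LOX calls were lost in 3 of the TPM fits (to -0.36 and -0.04 at the smallest), and that of LOX also without shCtrl replicate 1. BNIP3, BNIP3L, DDIT4, HILPDA, ANKRD37, CA9, ANKZF1 and JMJD6 were not called. Line, vector and medium supplements cannot be told apart in this comparison, and its shCtrl and control libraries are the same ones used above.

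**Figure D5:**
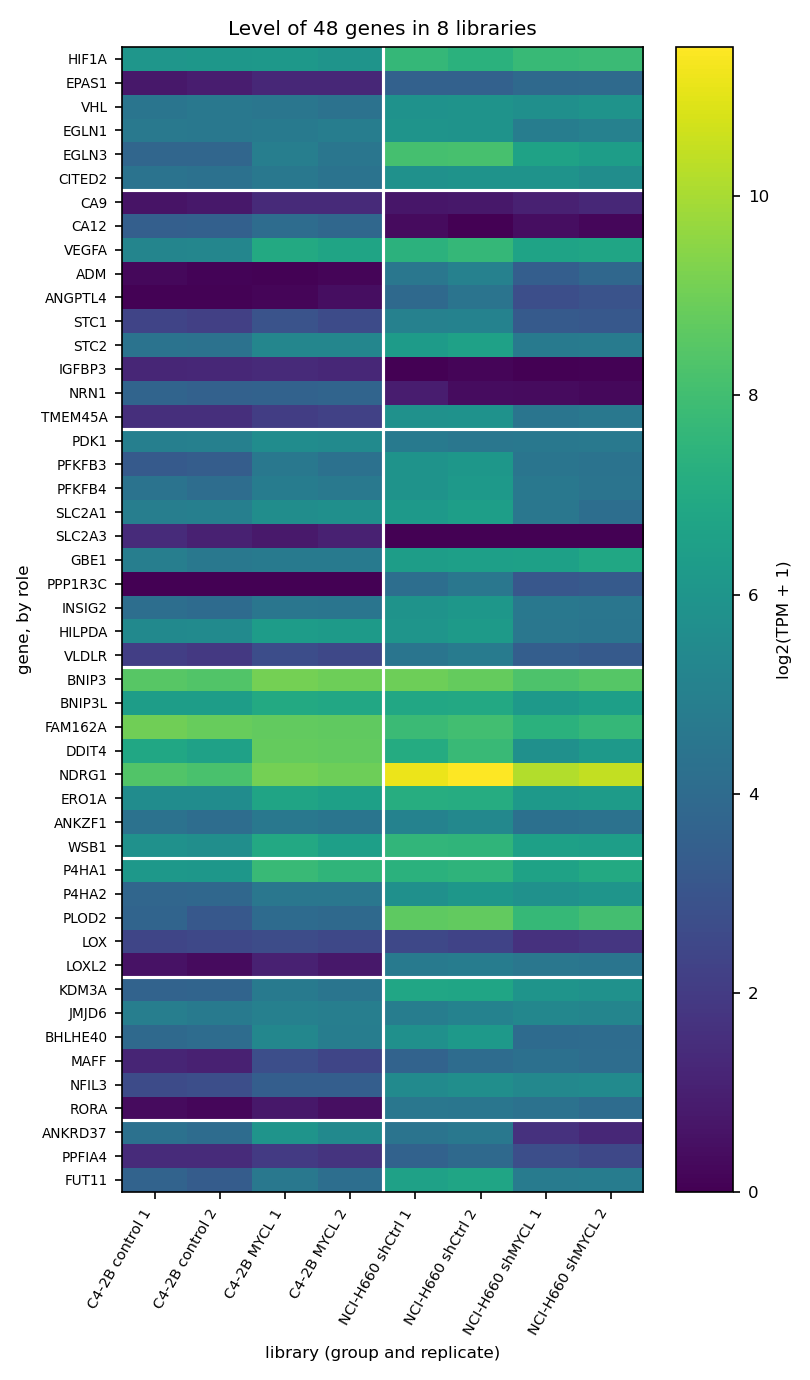
Level as log2(TPM + 1) (colour scale) of the 48 genes (rows, by role, with white lines between roles) in the 8 libraries (columns). NDRG1 is the brightest row, with 2284 and 2895 TPM in shCtrl, and PPP1R3C, ADM and ANGPTL4 are near 0 in the C4-2B libraries.

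Lists of other genes of the pathway were counted in the same way. These lists too were chosen with earlier results of these data known, so they are not independent of them. Over all genes tested, 11.8% rose and 8.12% fell in C4-2B, and 7.18% rose and 8.99% fell in NCI-H660. Of 13 other genes of the HIF machinery, 12 were tested in each line, HIF3A being the one left out. In C4-2B 3 rose (25% of those tested) and none fell by the edgeR or the DESeq2 test (4 at an unadjusted p under 0.05), with a median of 0.12: SIAH1 and SIAH2 (0.73 and 0.62), ligases that remove prolyl hydroxylases, and ELOB (0.50), an elongin of the VHL complex. In NCI-H660 none was called by edgeR or DESeq2 (median 0.00), and at an unadjusted p under 0.05 1 was higher and 1 lower. ARNT, the shared HIF partner, was not called in either line (0.11 and 0.04), nor was HIF1AN, the asparagine hydroxylase (-0.38 and 0.14). Of 40 other genes known to respond to hypoxia, 31 were tested in C4-2B, where 12 rose (38.7%) and 2 fell (6.45%), with a median of 0.45. In NCI-H660 33 of them were tested. There 15 fell (45.5%, median -0.45) and none rose by edgeR or DESeq2 (6 at an unadjusted p under 0.05). DESeq2 called 10 higher and 2 lower in C4-2B, and 13 lower in NCI-H660. Among those with a mean log2 CPM of at least 3, the largest called changes in C4-2B were of HMOX1 (2.98, SE 0.16), the heme oxygenase, KLHL24 (1.38, SE 0.10) and TFRC (-0.95, SE 0.07), the transferrin receptor. In NCI-H660, at the same minimum level, they were of AK4 (-1.89, SE 0.11), an adenylate kinase of mitochondria, CXCR4 (-1.47, SE 0.12), a chemokine receptor, and MXI1 (-1.35, SE 0.11), a MAX partner that opposes MYC. TFRC was lower in both lines (-0.92 in NCI-H660).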

How the data were processed

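Per the labels, poly(A) RNA was sequenced as paired-end reads, and the submitters' processing notes name the human build hg38; aligner, counting tool and strand use were not given in the sources used here. The authors deposited estimated counts per gene, 34.4% of whose non-zero values were not whole, and a table of TPM, which the authors computed from counts and gene lengths; that table holds 65535 genes against 78691 in the count table, all 48 members among them. The counts were rounded and tested with edgeR 4.0.16 in R 4.3.3 (TMM scaling, filterByExpr, quasi-likelihood test, Benjamini-Hochberg adjustment over all genes), separately in each line and over all 4 groups for the interaction and for the control lines. The scripts were tested on simulated data first. SE and 95% intervals come from the quasi-likelihood statistic. CPM was scaled within each line.

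Members, gene lists and tests were chosen with earlier results of these data known. Every library's value is given for HIF1A, EPAS1, VHL, EGLN1 and EGLN3, for members called in both lines and for those with the largest change (5 in each line with a mean log2 CPM of at least 3, 5 for the interaction, 4 between control lines); outside the members, the 3 largest called genes of each list and line. The titles of the C4-2B controls call them biological replicates, but no label says that they came from separate cultures, so p-values measure the spread between 2 libraries, which may be technical. Depth was 15177071 to 32344170 counts, and a count of 0 allows 3 counts. Alternatives were DESeq2 1.42.0, limma 3.58.1 on log2(TPM + 1) with at least 1 TPM in 2 libraries, other scaling, filters, fold minimums, a replicate block and leaving out each library. Gene positions and overlaps come from GENCODE 44, in which 61458 of the 78691 identifiers were found.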

Additional observations from a re-analysis of the deposited data

Results flagged for a closer look

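The effect of high against low MYCL differed between the lines for 21 members, tested as an interaction with edgeR at an adjusted p under 0.05 and a difference of at least 0.5 on the log2 scale. Values are the C4-2B effect minus the NCI-H660 effect. It was larger in C4-2B for CA9 (2.54), MAFF (2.48), EPAS1 (1.39), VEGFA (1.07), P4HA1 (1.05), LOXL2 (0.95), P4HA2 (0.82) and NFIL3 (0.80). It was larger in NCI-H660 for ANKZF1 (-0.57), EGLN3 (-0.57), STC2 (-0.65), EGLN1 (-0.67), HILPDA (-0.68), BHLHE40 (-0.73), FUT11 (-0.81), LOX (-0.90), INSIG2 (-0.93), PFKFB4 (-1.05), STC1 (-1.10), SLC2A1 (-1.16) and ANKRD37 (-1.90). For CA9, EPAS1 and MAFF the fitted effects had opposite signs in the lines, though none of the 3 was called in NCI-H660. CA9 rests on 8 to 35 counts per library, and its difference lost the call in some fits with a library left out (2.30 to 2.73). Of the 21, 12 kept the call in every alternative other than TPM without a filter, and 9 lost it when some library was left out. The LOXL2 difference was 1.51 without C4-2B control replicate 1 and 0.63 without C4-2B control replicate 2, and the BHLHE40 difference was -0.48 without NCI-H660 shCtrl replicate 2. What sets the difference was not tested.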

How the results depend on the processing

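The direction of all 32, 31, 21 and 40 called members (C4-2B, NCI-H660, difference between lines, control lines) was the same in every alternative. The called number moved by more than 1.5 times in few settings. With a fold minimum of 1 on the log2 scale, 16 members were called in C4-2B and 9 for the difference. With log2(TPM + 1) without a filter, limma called 20 in C4-2B and 0 in NCI-H660, where 34 members had an unadjusted p under 0.05, DESeq2 called 31 and limma with the filter called 28. The cause was not tested. Some members not called in the main fits were called in an alternative. For the difference between lines, PDK1 (0.44) was called in every TPM fit. DDIT4 (0.67) was called there with the other count filters or a replicate block. Leaving out each library gave 29 to 32 called members in C4-2B, 29 to 32 in NCI-H660, 14 to 24 for the difference and 40 to 41 between control lines. In C4-2B 6 calls were lost when some library was left out (EPAS1, CA9, TMEM45A, PFKFB4, INSIG2, LOXL2), and in NCI-H660 3 (BNIP3, FAM162A, P4HA1). A leave-one-out group of 1 library was assumed to vary like the others. Same-numbered libraries did not deviate together (correlation of deviations over genes 0.0161 in C4-2B and 0.0266 in NCI-H660), so the numbers were not taken as pairs; with a replicate block 32, 31, 22 and 40 members were called. With 2 libraries a group, changes in weakly counted members (CA9, LOXL2, RORA in C4-2B) were poorly resolved at this depth.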
